A study of Homo sapiens with 3 samples.

Results

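The genes described here encode the proteins of the cytosolic ribosome, followed across 3 human expression arrays. Members were chosen by name alone: a probe set entered if GEO's platform annotation gave it a single symbol of the RPL, RPS, RPLP or RPSA families, with pseudogenes and the S6 kinases left out. Each gene was represented by its probe set of highest mean log2 signal over the 3 arrays. The rule found 52 genes among the 19775 genes that have a probe set with a single symbol, 32 of the large subunit and 20 of the small subunit, and all 52 stood above the floor used for low signals. A further 64 probe sets list a ribosomal protein symbol among several symbols, and 56 of them also list a small nucleolar RNA. The genes behind those probe sets are left unnamed here, so 15 ribosomal protein symbols of the families above have no gene value of their own.

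The arrays hold total RNA of HepG2 cells, per the labels a line from a human liver cancer, grown in medium with serum and carrying stably introduced vectors. The array labelled ORF stands for a vector with the open reading frame of Hsp27, a small heat shock protein encoded by HSPB1; that labelled shRNA stands for a hairpin vector against Hsp27, although its sample title reads siRNA; and that labelled control stands for a control vector, whose title names EGFP. There was 1 array in each of the 3 groups and no replicate, so no p-value is given and no difference below has a check against the spread between cultures. Whether the cells were clones or pools, and which promoters drove the vectors, is not given in the sources used here. The study's comparison asks what raising or lowering Hsp27 does to the transcriptome.

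HSPB1 itself did not follow the labels. Its log2 signal was highest on the control array, at 13.25, followed by 13.11 on the ORF array and 13.03 on the shRNA array. The array labelled ORF was 0.08 higher than the array labelled shRNA on the log2 scale, and whether the probe set lies within the vector's insert is not given in the sources used here. All directions below are therefore those of arrays as labelled. The liver label was not borne out by markers either: of 8 hepatocyte genes on the array, albumin and 5 others were below the floor on all 3 arrays, and AFP and TF passed it on 1 array each. Of the 4 epithelial markers, KRT18, KRT8 and EPCAM had mean log2 signals from 10.43 to 13.57, while CDH1 passed the floor on the control array alone. Of the 6 fibroblast markers, LUM, COL1A1 and DCN had means from 9.68 to 13.23 and COL3A1 of 7.43, while COL1A2 and PDGFRB passed the floor on 1 array each. KRT8, an epithelial keratin, had log2 ratios against control of -0.83 (ORF) and -0.58 (shRNA). The part of cell identity in the ribosomal protein values was not tested.

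Ribosomal proteins assemble with ribosomal RNA into a large and a small subunit, in near equal numbers of copies, and their mRNAs are among the most abundant of growing cells. Many of these mRNAs start with a cytosine followed by a run of pyrimidines, the terminal oligopyrimidine tract, through which mTOR signalling and LARP1 control their translation. Free ribosomal proteins, RPL11 among them, bind MDM2 when ribosome assembly fails, which links ribosome production to p53.

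The sequence at the start site is shown for members with some of the lowest and highest ratios and for RPS23, the brightest, because this shared start is the best known feature of the family. Windows of 15 bases before to 15 bases from the RefSeq start (build GRCh38.p14, gene strand, 5′ to 3′) are printed in lower case, with the run that begins at the start in capitals. The motif searched was a C at the start base followed by at least 4 bases that are each C or T, on the gene's strand only.
RPL41, chr12:56116618-56116647, plus strand: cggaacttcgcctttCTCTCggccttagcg
RPL18, chr19:48619164-48619193, minus strand: accccagcccgttctCTCTTTCCggacctg
RPS18, chr6:33272060-33272089, plus strand: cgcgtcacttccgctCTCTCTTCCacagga
RPL31, chr2:101002274-101002303, plus strand: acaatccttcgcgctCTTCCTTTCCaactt
RPS23, chr5:82278340-82278369, minus strand: tcctgcggtgcttctCTCTTTCgctcaggc
RPS25, chr11:119018329-119018358, minus strand: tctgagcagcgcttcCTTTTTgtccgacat
RPLP2, chr11:809952-809981, plus strand: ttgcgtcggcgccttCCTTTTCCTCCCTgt
RPL10A, chr6:35468386-35468415, plus strand: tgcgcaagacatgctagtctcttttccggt

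RefSeq's table held 53 starts for 46 members and none for the other 6. The run was present at 34 of the 53 starts (64.2%), against 1429 of 35116 starts of all genes (4.07%). Of the 46 members, 34 had it at a start, the longest being 19 bases at RPL39, and 12 did not, RPL10A above among them. When the run could begin up to 5 bases either side of the start, 83.0% of the members' starts and 21.1% of all starts held one. RPL41 and RPS25, which lie at opposite ends of the ratios given below, both carry it. Among members of mean log2 signal above 11, the 31 with the run had a median log2 ratio of -0.13 for ORF against control and -0.18 for shRNA against control, and the 12 without it had -0.12 and -0.19. The difference between these medians was not tested, and a match of letters is a description of the window only.

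The probe sets of these genes were near the top of the array's range on every array. Mean log2 signals of 49 members lay between 13.99 and 15.16, and 3 were far dimmer: RPL27A at 10.34, RPLP2 at 9.39 and RPL36A at 7.15. A bound of 11, set after these values were seen, separates the 3 from the rest. Of the 50 genes with the brightest probe sets, 25 were members, and 8 of the brightest 10 were. A probe set's signal depends on its own probes as well as on the transcript, so these signals are not used to rank transcripts by abundance. RPS23, part of the decoding centre of the small subunit, had log2 signals of 15.17 (ORF), 15.08 (shRNA) and 15.24 (control). RPL31, which lies at the mouth of the exit tunnel, had 15.12, 15.02 and 15.31. For both genes the control array was highest and the shRNA array lowest.

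**Figure D1:**
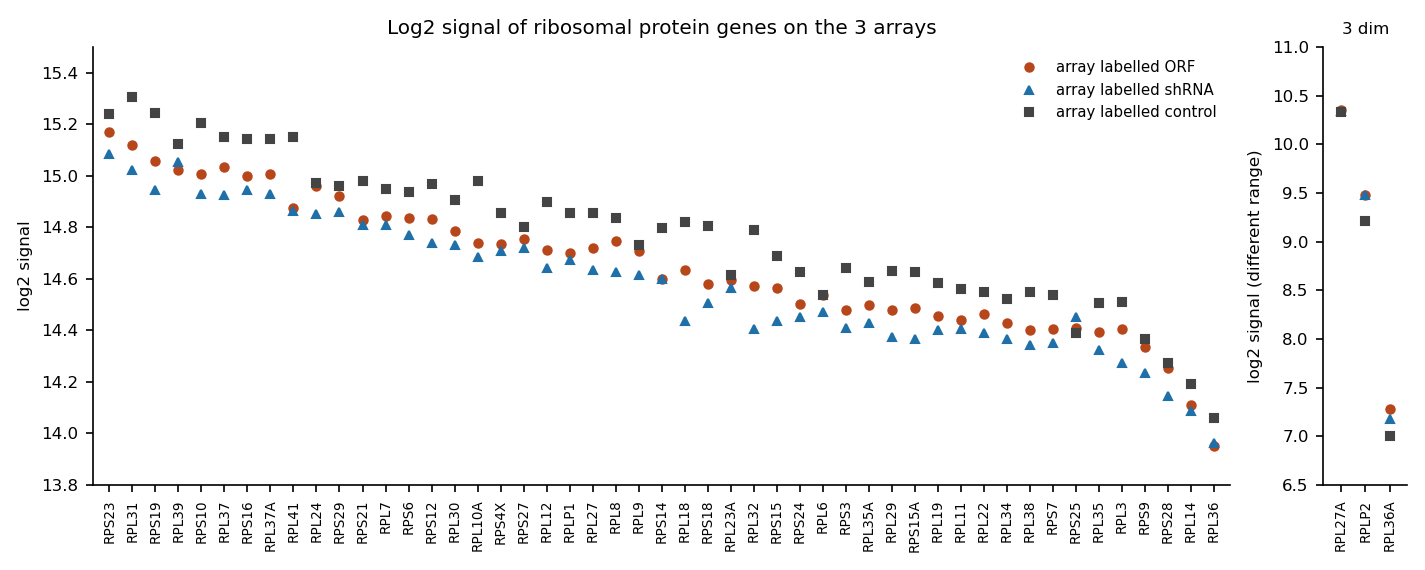
Log2 signal of each of the 52 ribosomal protein genes on the arrays labelled ORF (circles), shRNA (triangles) and control (squares), ordered by mean signal, with the 3 dim genes on a separate scale at the right. The control array gave the highest value for 48 of the 52 genes.

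That order ran through most of the family. The control array was highest for 48 of the 52 members, and the array labelled shRNA was lowest for 46. The full order of control above ORF above shRNA held for 46 members (88.5%), for 74 of the 151 other genes of mean log2 signal at least 14 (49.0%), and for 21.1% of all 12664 genes measured, meaning those above the floor on at least 1 array. The bound of 14, also set after the data were seen, gives genes whose probe sets reach the range of most members. They are somewhat dimmer, with a median mean log2 signal of 14.30 against 14.68 for the 48 members past the same bound. Summed over the 52 genes, linear signal made up 2.98% of the ORF array's total, 2.85% of the shRNA array's and 3.16% of the control array's. The median member had a log2 signal of 14.60, 14.53 and 14.79 on the 3 arrays in that order. Fewer cells of a type and less RNA per cell cannot be told apart in such bulk samples.

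Between the arrays labelled ORF and control, 48 of the 52 ribosomal protein genes were lower on the ORF array, against 49.4% of all genes measured. The differences were small: the median log2 ratio was -0.12, which is 1.09-fold lower, with an SD over genes of 0.10. At least 1.1-fold lower were 17 members, or fewer than 1 in 3, where 24.3% of all genes measured and 34.4% of the other genes of signal at least 14 passed the same fold. At least 1.1-fold higher were 2, the dim RPLP2 and RPL36A described below, against 24.7% of genes measured and 0.662% of the other genes of signal at least 14. No member was 1.5-fold different in either direction, nor was any of those 151 genes, against 2.82% of genes measured lower and 3.04% higher. The members' share past 1.1-fold is thus near that of the other genes of signal at least 14, of which 88.1% were lower on the ORF array with a median of -0.11.

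The medians of the large and small subunit genes were close in this comparison. Among the 49 bright members, the median log2 ratio was -0.12 for 29 large subunit genes and -0.13 for 20 small subunit genes. RPL41, whose product is a very short basic peptide, had the lowest ratio of ORF against control, with signals of 14.88 (ORF), 14.86 (shRNA) and 15.15 (control) and ratios of -0.28 and -0.29 against control. The ORF and shRNA arrays thus lay well under the control array and close to each other. RPL10A, of the mobile stalk beside the tRNA exit site, had 14.74, 14.68 and 14.98, a log2 ratio of -0.24 for ORF against control. Its other bright probe set gave -0.09 for ORF and -0.19 for shRNA against control. RPS18, in the head of the small subunit, had 14.58, 14.50 and 14.80, a log2 ratio of -0.22. For these genes too the control array stood apart from both others on the probe sets used.

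At the other end were RPL6 (14.54, 14.47 and 14.54) and RPL24 (14.96, 14.85 and 14.97) of the large subunit. On the probe sets used they hardly differed between the ORF and control arrays, at -0.00 and -0.01, while the shRNA array was lower. The second bright probe set of RPL24 instead gave -0.13 for ORF and -0.13 for shRNA against control. RPS25, a small subunit protein that some viral internal ribosome entry sites require, was the only bright member that was lowest on the control array. Its log2 signals were 14.41 (ORF), 14.45 (shRNA) and 14.39 (control), and its ratios against control, 0.02 and 0.06, were within the spread between probe sets of 1 gene given below.

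Between the arrays labelled shRNA and control, 48 members were again lower than control, against 51.1% of all genes measured, and the same control array enters both comparisons. The median log2 ratio was -0.18, or 1.13-fold lower, with an SD over genes of 0.12. At least 1.1-fold lower were 37 members, where 29.0% of all genes measured and 42.4% of the other genes of signal at least 14 were. Of those other bright genes 88.1% were lower, with a median of -0.12. RPLP2 and RPL36A were again the 2 members at least 1.1-fold higher, against 26.9% of genes measured and 3.31% of the other bright genes. No member and none of those bright genes was 1.5-fold different, against 3.30% of genes measured lower and 3.59% higher.

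The lowest of these ratios belonged to 2 large subunit genes. RPL18 had log2 signals of 14.64 (ORF), 14.43 (shRNA) and 14.82 (control), a ratio of -0.39 for shRNA against control. RPL32 had 14.57, 14.40 and 14.79, a ratio of -0.38. In both the ORF array lay about midway between the others. RPS18 followed at -0.30, and then RPS19, the small subunit gene most often mutated in Diamond-Blackfan anaemia, with 15.06, 14.94 and 15.24 and a ratio of -0.30. RPS10, which is mutated in the same anaemia, had 15.01, 14.93 and 15.20 and a ratio of -0.27. The subunit medians of bright members were -0.18 for both the large and the small subunit.

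RPS6, the substrate of the S6 kinases, had 14.83 (ORF), 14.77 (shRNA) and 14.94 (control), log2 ratios of -0.10 and -0.17 against control. RPL11, the MDM2 binding protein, had 14.44, 14.41 and 14.56, ratios of -0.12 and -0.16. RPLP1, a protein of the acidic stalk that recruits elongation factors, had 14.70, 14.67 and 14.86, ratios of -0.16 and -0.19. RPS4X, an X-linked small subunit gene, had 14.73, 14.71 and 14.86, ratios of -0.12 and -0.15, but its second bright probe set gave -0.02 and -0.02. RPS14, known from the deletion of 5q in myelodysplasia, had nearly the same signal on the ORF and shRNA arrays (14.60 and 14.60, against 14.80 on control).

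The comparison of the arrays labelled ORF and shRNA leaves out the control array. Of the 52 members, 49 were higher on the ORF array, against 51.1% of all genes measured and 55.6% of the other genes of signal at least 14. The median log2 ratio was 0.07, or 1.05-fold, with an SD over genes of 0.05, where those other genes had a median of 0.01. Only 2 members passed 1.1-fold higher, RPL18 at 0.20 and RPL32 at 0.17, against 26.1% of all genes measured and 3.97% of the other genes of signal at least 14. None was 1.5-fold different, against 2.68% of genes measured lower and 2.64% higher, and none of the other genes of signal at least 14. The 3 genes that were lower on the ORF array were RPS25 (-0.04), RPL39 (-0.03), which lines the exit tunnel, and RPL36 (-0.01). The difference thus had one direction in nearly all members.

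**Figure D2:**
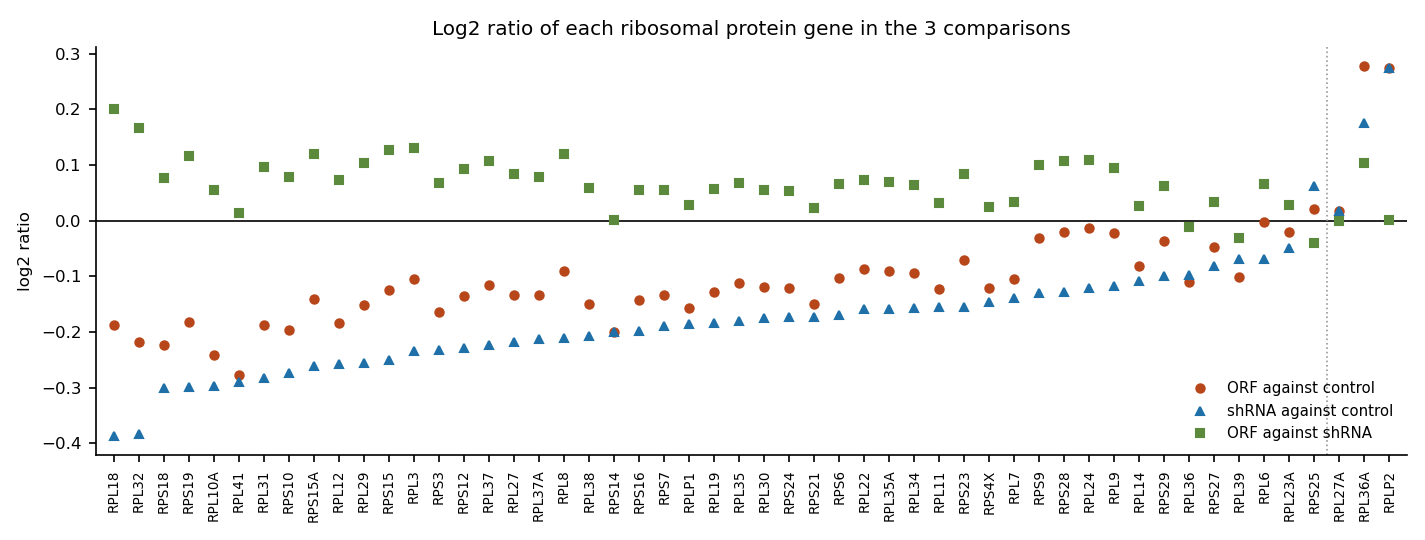
Log2 ratio of each of the 52 ribosomal protein genes for ORF against control (circles), shRNA against control (triangles) and ORF against shRNA (squares), ordered by the shRNA against control ratio, with the 3 dim genes to the right of the dotted line. Ratios against control lie below 0 for 48 genes in each comparison, and ORF against shRNA lies above 0 for 49.

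With 1 array per group, the spread available was that between probe sets of the same gene on the same arrays, which leaves out variation between cultures. Over pairs of probe sets in the brightest class (mean log2 signal of at least 13.06), the SD of a single log2 ratio was 0.074 for ORF against control, 0.10 for shRNA against control and 0.071 for ORF against shRNA. RPS6 shows the limit: its 3 probe sets of signal at least 14 differed by up to 0.22 (ORF against control) and 0.28 (shRNA against control). The second bright probe set of RPS19 gave -0.00 and -0.12, against -0.18 and -0.30 for the one used. A dimmer probe set of RPS19, of mean log2 signal 8.32, had the opposite sign, at 0.32 and 0.12. Over the 15 members with at least 2 probe sets of signal at least 14, the median range among those was 0.091 and 0.080.

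The ratios against control differed between the brightest probe sets and the dimmer ones. Of the members' probe sets, 67 had a mean log2 signal of at least 14, and 66 of these were below control in each comparison, with medians of -0.12 (ORF) and -0.19 (shRNA). The 15 probe sets of members between 8 and 11 had medians of 0.11 and -0.03, and 4 and 8 of them were below control. The 8 from 11 to 14 had medians of -0.01 and -0.10, and the 12 from the floor to 8 had 0.02 and -0.01, with 6 below control in each, so the ORF medians did not go on increasing toward the lowest signals. In 20 members that had probe sets both at or above 14 and below 13 (bounds set after the data were seen), the dimmer ones gave the higher ratio in 15 genes for ORF and in 16 for shRNA, by a median of 0.20 in both. The median over these genes was -0.12 and -0.20 in bright probe sets and 0.07 and -0.00 in the dimmer ones. For RPL37A, a zinc-binding large subunit protein, the bright probe set gave -0.13 and -0.21 and the dimmer ones 0.18 and 0.18. Probe sets of the same gene thus differed with brightness, and the cause was not tested.

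**Figure D3:**
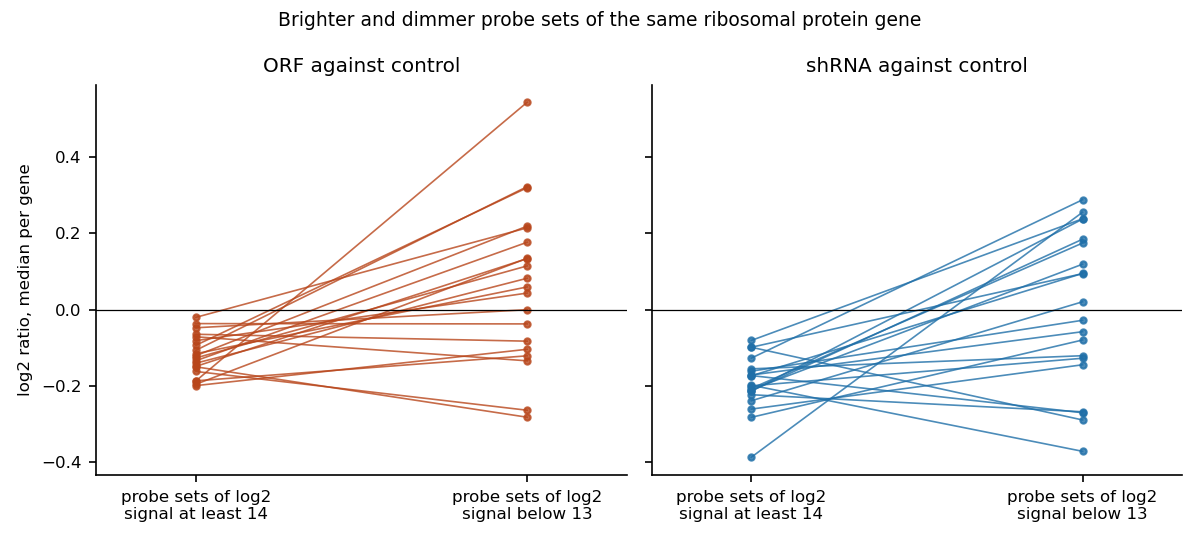
Log2 ratios from probe sets of mean log2 signal at least 14 and below 13 for the 20 ribosomal protein genes that have both, as the median per gene, with a line joining the values of a gene. Against control the bright values all lie below 0, and the dimmer ones were higher in 15 genes for ORF against control and 16 for shRNA against control.

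The 3 dim members lay on the side of the dimmer probe sets. RPLP2, the partner of RPLP1 in the stalk, had log2 signals of 9.48 (ORF), 9.48 (shRNA) and 9.21 (control), ratios of 0.27 and 0.27, against -0.16 and -0.19 for RPLP1. RPL36A, an X-linked large subunit gene, had 7.28, 7.18 and 7.00, ratios of 0.28 and 0.17. RPL27A had 10.35, 10.35 and 10.33, both ratios 0.02. All 3 were lowest on the control array, as was RPS25 and none of the other members, and the spread between probe sets is wider at these signals (an SD of 0.43 for ORF and 0.41 for shRNA against control at the signal of RPL36A). The 40 probe sets of signal at least 14 that list a ribosomal protein among several symbols behaved as the bright members did: 39 were below control in each comparison, with medians of -0.13 and -0.21, and their ORF against shRNA median was 0.05.

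Among genes outside the family the brightest also had the lowest medians. With members left out, the median log2 ratio of ORF against control was 0.02 for genes of mean log2 signal from 10 to 11, -0.03 from 12 to 13, -0.04 from 13 to 14, and -0.11 from 14 to 15. For shRNA against control these medians were 0.01, -0.03, -0.04 and -0.12. Only 4 genes outside the family lay from 15 to 16, with medians of -0.18 (ORF) and -0.21 (shRNA), and all 4 were below control in each comparison. A smoothed curve of ratio on signal (loess) over all probe sets passed through -0.10 and -0.12 at the signals of the bright members, and through -0.09 and -0.10 when probe sets listing a ribosomal protein were left out of the curve. The 18 probe sets for the added control transcripts BioB, BioC, BioD and Cre differed in the same direction. The 4 of signal at least 14 had medians of -0.09 and -0.10 and were all below control, and the 10 below 12 had -0.01 and -0.05. Several of these probe sets share 1 transcript, so they are not independent. Over all probe sets, the ribosomal protein ones included, 37 exceeded a log2 signal of 15 on the control array. On the ORF array 15 did, and on the shRNA array 6. No count was made without the ribosomal protein probe sets, so these counts partly restate the members' own signals. The top of the range, members included, thus reached less far on the ORF and shRNA arrays. Within the 49 bright members the ratio and mean signal had a Pearson correlation of -0.27 for ORF and -0.24 for shRNA, over genes that share the same 3 arrays. For ORF against shRNA the curve at the bright members was only 0.02, against their median of 0.07.

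**Figure D4:**
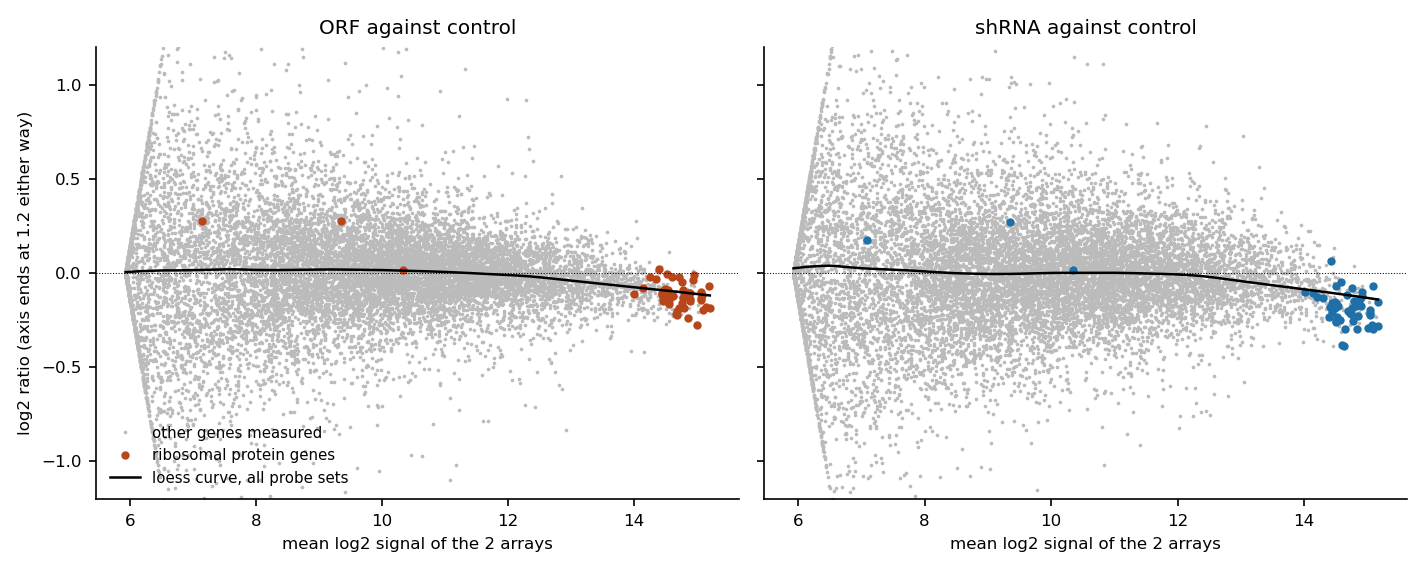
Log2 ratio against the mean log2 signal of the 2 arrays for ORF against control and shRNA against control, with ribosomal protein genes in colour, other genes measured in grey and the loess curve over all probe sets as a line; the vertical axis ends at 1.2 either way. At the bright ribosomal protein genes the curve lies below 0, at a median of -0.10 and -0.12 for the 2 comparisons.

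The scaling of the arrays set the size of the ratios against control, and in one case their sign. With equal trimmed means, as deposited, the members' medians were -0.12 and -0.18. Quantile normalization, which gives all arrays one distribution, turned the ORF median to 0.0087 and left -0.0084 for shRNA. Probe sets that list a ribosomal protein were 54% of the brightest 50 and 41% of the brightest 200. Equalizing the top of the arrays therefore draws these medians toward 0 whether or not the genes differ. Loess centring gave -0.02 and -0.06, and scaling on the added control transcripts (spike-in scaling) -0.08 and -0.12. Equal medians (-0.13 and -0.18) and equal upper quartiles (-0.15 and -0.18) stayed near the main values. Centring on the other genes of signal at least 14 gave -0.01 and -0.06, and moved the median of all genes measured to 0.11 in both comparisons. With ribosomal protein probe sets left out of the loess curve the medians were -0.03 and -0.08, close to those of the curve over all probe sets.

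Set against the other genes of signal at least 14 under the same setting, the members' median for ORF against control differed by -0.01, and by between -0.03 and 0.01 over the settings run. For shRNA against control the difference was -0.06, between -0.07 and -0.03 over the settings, and for ORF against shRNA it was 0.05, between 0.03 and 0.08. A constant added to an array cancels in these differences, so settings that only rescale arrays give the same value by construction. Only settings that change the distribution, the curve or the probe sets could move it. The other genes were somewhat dimmer than the members, and the part of brightness in these differences was not tested. The ORF against shRNA median of the members was above 0 under every setting run, from 0.02 with quantile normalization to 0.08 without probe sets of the _x_at and _s_at kinds, which can match several transcripts. For shRNA against control, RPL18 had -0.21 with quantile normalization and -0.27 with loess centring, but 0.16 from its second brightest probe set, whose signal is 9.58. RPL41 had -0.10 and -0.16 under the same 2 scalings, and RPS25 0.22 and 0.17. The ORF against shRNA ratio of RPL41, 0.01, turned to -0.03 with quantile normalization, and that of RPL18 was 0.17.

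**Figure D5:**
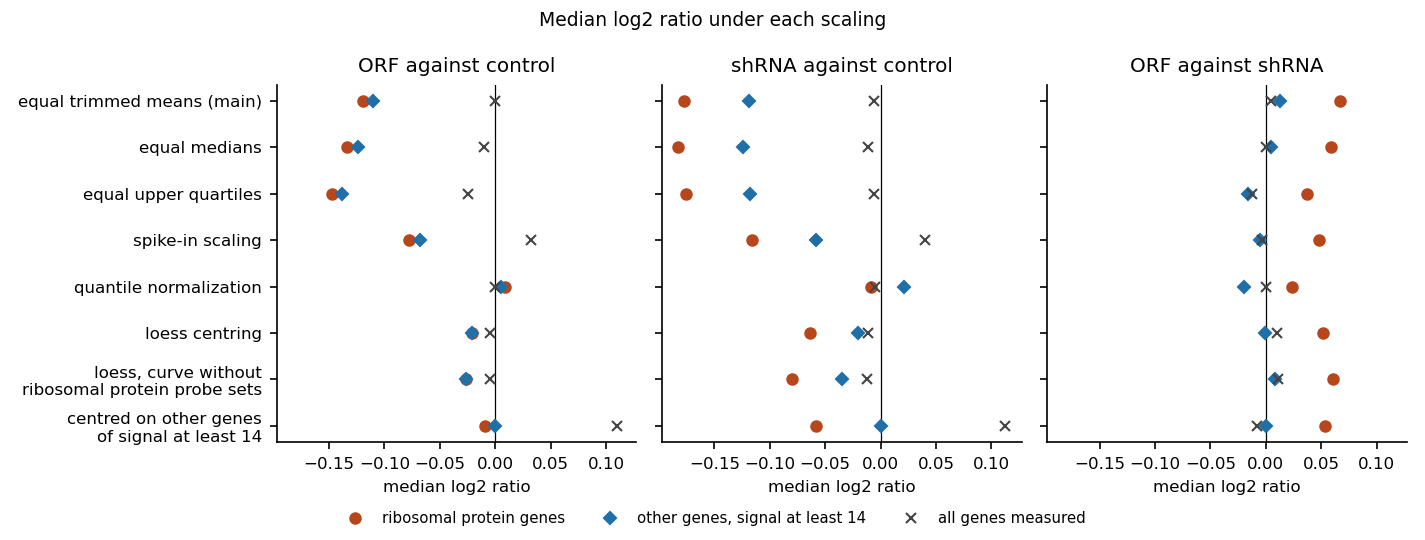
Median log2 ratio under 8 scalings (rows) in the 3 comparisons, for the ribosomal protein genes (circles), other genes of mean log2 signal at least 14 (diamonds) and all genes measured (crosses). For ORF against control circles and diamonds nearly coincide under each scaling, and for ORF against shRNA the circles lie above 0 in all rows. Scalings by a constant per array cannot change the distance between circle and diamond.

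Lists of genes around the ribosome had medians nearer 0, and their signals were lower as well. Median mean log2 signals were 13.97 for the translation factors, 11.34 for genes that build ribosomes and 10.12 for upstream regulators. The part of signal in this contrast was not tested. The 75 mitochondrial ribosomal protein genes, whose products serve the separate ribosome of mitochondria, had median log2 ratios of 0.02 (ORF) and 0.00 (shRNA) against control, and 35 and 36 of them were lower. Single ratios of this list ranged from -0.23 to 0.36 for ORF and from -0.39 to 0.80 for shRNA, both highest at MRPL19. The median signal of these 75 genes, 11.73, was well under that of the cytosolic family. Of 18 listed translation factors and other mRNAs with the pyrimidine start, 16 were measured, with medians of -0.04 and -0.10, and 10 and 12 lower than control. Among them TPT1, a classic mRNA of this type, had -0.14 and -0.24, PABPC1, the poly(A) binding protein, -0.14 and -0.18, and EIF3F, of the initiation factor that binds the small subunit, -0.19 and -0.23. EIF4B, a helper of the initiation helicase, was at 0.01 and -0.26. EIF3M, of the same factor as EIF3F, was higher than control at 0.10 and 0.22, as were NAP1L1, a histone chaperone, at 0.02 and 0.15 and EIF2S3, of the factor that brings the initiator tRNA, at 0.06 and 0.14. EEF1A1, the elongation factor that delivers tRNA and the brightest of the list, was nearer 0 at -0.06 and -0.09. FAU, which encodes a small subunit protein outside the naming rule, had -0.19 and -0.19, and RPS27L, a p53 target related to RPS27, had -0.12 and 0.03.

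Genes that build ribosomes were mixed. Of 37 listed, 30 were measured, with medians of -0.01 for ORF and 0.11 for shRNA against control, and 6 and 5 at least 1.1-fold lower against 6 and 11 at least 1.1-fold higher. POLR1A, the largest subunit of RNA polymerase I, had 0.55 and 0.28, and its partner POLR1B 0.37 and 0.10. GAR1, of the complex that pseudouridylates ribosomal RNA, had 0.09 and 0.48, and NCL, nucleolin, 0.19 and 0.40. RRS1, which helps load the 5S particle, had -0.25 and -0.39. Of 11 upstream regulators, with medians of -0.01 and 0.10, MYC had 0.24 and 0.19, MTOR -0.01 and 0.54, TSC2, an inhibitor of mTOR signalling, -0.48 and -0.27, and RPTOR, the mTORC1 scaffold, -0.60 and -0.48, the only one past 1.5-fold. MTOR and RPTOR have mean log2 signals of 7.84 and 7.66, where the SD of a log2 ratio between probe sets of 1 gene is 0.28 to 0.31. Of 5 genes of the p53 arm, 4 were measured, with medians of -0.03 and 0.04; CDKN1A, the p53 target p21, had -0.09 and 0.28, and BAX 0.01 and -0.37.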

How the data were processed

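The authors deposited 1 log2 signal per probe set for 54675 probe sets on 3 arrays; the submitters' processing notes name MAS5, with version and target not given in the sources used here. The log2 scale was read from the values: the linear mean without the outer 2% of probe sets was 500.1 on each array. Arrays were scaled to equal trimmed means; a floor at the pooled median (log2 5.93) replaced lower signals, and log2 ratios were taken per gene (1 symbol; probe set of highest mean signal). Differences near the floor are understated. Symbols and gene IDs of all 52 members matched RefSeq's gene table. Members and lists were chosen with earlier results of these data known; the bounds of 11, 13 and 14 and 4 alternatives were added after seeing the data. The start motif was also tried in 2 wider forms; runs of at least 8 beginning within 5 bases of the start lay at 62.3% of the members' starts and 5.37% of all starts. Members selected for naming, called named members below, were the 8 brightest and 8 dimmest, the 8 highest and 8 lowest per comparison, genes with opposed probe sets and genes of known role. Not all of them are described above: RPL35A and RPS28, which have opposed probe sets, are among those left out. Of other lists, up to 4 each with some of the largest ratios were named, though not strictly the largest. Left out were RRP9 (0.40) and MYCN (0.42) for shRNA against control, and NIP7 (-0.46) for ORF against shRNA. TPT1, PABPC1, EEF1A1, EIF2S3, NAP1L1, POLR1B, MYC, FAU, RPS27L and the markers were chosen after their values were seen. Loess used a span of 0.3 (statsmodels 0.14.6). Scripts were tested on simulated data (Python 3.11.15, numpy 2.4.6, pandas 2.3.3). The number of arrays, 1 per group, limits the precision.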

Additional observations from a re-analysis of the deposited data

How the results depend on the processing

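Values come in the order ORF–control, shRNA–control and ORF–shRNA, for the median log2 ratio and then for the number of members at least 1.1-fold lower, lower and higher; the main counts were 17, 37 and 2. Quantile normalization gave 0.0087, -0.0084 and 0.023 with 0, 2 and 1 genes, loess centring -0.021 and -0.064 with 1 and 11, and spike-in scaling -0.078 and -0.12 with 10 and 21. Equal upper quartiles gave 30 genes for ORF against control, and 0.038 with 1 gene for ORF against shRNA. Without _x_at and _s_at probe sets, which left 26 members, the ORF against control median was -0.067 and the counts were 5, 12 and 8; the median over probe sets and the second brightest probe set gave 5 and 7 genes for ORF against shRNA. Alternatives chosen after seeing the data were loess without ribosomal protein probe sets (-0.026 and -0.080, with 2 and 13 genes), centring on the median ratio of other genes of signal at least 14 (-0.0097 and -0.058, with 1 and 10), the first form tried of that centring, on their median signals (-0.029, -0.057 and 0.037, with 2, 9 and 1), and leaving out the 3 dim members, which moved no median or count by over 1.5 times. As deposited, equal medians and no floor did not either. Among the 108 ratios of named members, the sign differed from the main one in 43 with quantile normalization, 25 and 22 with the centrings on median signals and on the median ratio of other bright genes, 20 with loess centring, 16 with loess without ribosomal protein probe sets, 11 with equal upper quartiles, 10 with spike-in scaling, 7 with the median over probe sets, 3 with equal medians and 0 as deposited or without the floor. It differed in 12 of 102 with the second brightest probe set, in 10 of 54 without _x_at and _s_at probe sets, and in 0 of 99 without the 3 dim members. The causes were not tested. No paired analysis was possible because each group has 1 array, and leaving out a replicate is not possible for the same reason.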
